A study of Mus musculus with 8 samples.

Results

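Interleukins and their receptors were examined as a gene family in white blood cells of the mouse lung interstitium, isolated from enzyme-digested lungs on a Percoll density gradient. The members were all genes with a symbol that starts with Il and a digit in the array's probe annotation, without Il1a, Il1b, Il1rn, Il1r1, Il18, Il18r1, Il33 and Il2rb, and with a value on all 8 arrays. Of 33 genes with such a symbol 30 met this, among 11597 genes tested in all: 10 ligands, 19 receptor chains and 1 secreted binding protein. The other 3 (Il7, Il17re and Il4i1) lacked a value on at least 1 array.

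The 8 arrays formed 4 groups of 2. RagKO silica mice were Rag1-/- animals depleted of natural killer (NK) cells with 300 µg of anti-NK1.1 antibody per injection, and they received 1 mg of crystalline silica in 25 µl of saline through the nose on each of 4 weekly occasions. RagKO saline mice were Rag1-/-, carried the same NK depletion and received saline alone. WT silica and WT saline mice were C57Bl/6 wild types given the same instillations, with no antibody stated for them. All mice were 6 to 8 weeks old. The Rag1 deletion and the antibody were always combined, so their effects cannot be told apart, and the strain of the Rag1-/- mice is not stated in the labels. Arrays of a group are labelled biological replicates, but the number of mice behind an array is not stated. Each array set leukocyte RNA (Cy5) against a universal mouse reference RNA (Cy3), and every level below is a log2 ratio to that reference. That scale assumes that the table holds log10 ratios, which the range of its values favours and no label states.

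Interleukins are secreted proteins by which leukocytes and tissue cells signal to each other, and most act through receptors built of a private chain and a chain shared with other cytokines. Receptors of the IL-2, IL-6, IL-10 and IL-12 families pass the signal through Janus kinases (JAKs) to STAT transcription factors, with SOCS proteins and CISH as feedback inhibitors, whereas IL-1 and IL-17 family receptors use MyD88, IRAK, TRAF6 and ACT1 adaptors. T cells and innate lymphoid cells need IL-7, and NK cells need IL-15. In the lung, IL-4 and IL-13 drive the alternative activation of macrophages, and IL-6 drives the acute phase response.

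Several features of the arrays stand beside all results. The 2 arrays of a group correlated with r between 0.9773 and 0.9888. The X-inactivation transcript Xist read -1.87 and 1.87 on the RagKO silica arrays and the Y-linked Eif2s3y 2.42 and -2.22, so these 2 arrays went opposite ways for sex-linked transcripts. On the other arrays Xist lay at -1.59 and -1.72 (RagKO saline), 0.54 and 0.23 (WT silica) and -0.04 and -0.18 (WT saline). Eif2s3y lay there at 2.9 and 2.6 (RagKO saline), 0.34 and 1.05 (WT silica) and 2.32 and 2.27 (WT saline). Sex-linked transcripts thus differed between WT silica and WT saline too, with Xist higher and Eif2s3y lower in WT silica. For Rn28s1, a probe for ribosomal RNA, the ratio was 0.86 and 0.59 in RagKO silica, 2.43 and 2.08 in RagKO saline, 2.17 and 2.45 in WT silica and 3.67 and 3.71 in WT saline. The mean over 6 general leukocyte markers was above the reference on every array, but it differed by group and was lowest in RagKO saline. It was 2.77 and 2.65 in RagKO silica, 2.48 and 2.22 in RagKO saline, 3.2 and 3.06 in WT silica and 3.53 and 3.48 in WT saline. This mean leaned on Laptm5, which differed most between the genotypes. Laptm5 read 1.58 and 1.39 in RagKO silica, 0.04 and -0.04 in RagKO saline, 4.13 and 4.34 in WT silica and 4.83 and 4.89 in WT saline. Cd53 went the other way, at 3.46 and 3.51 in RagKO silica, 3.41 and 3.58 in RagKO saline, 2.54 and 2.33 in WT silica and 2.53 and 2.46 in WT saline. All 7 measured T cell markers and all 3 measured B cell markers were lower in RagKO than in WT after either exposure. The mean of the B cell markers was -1.56 and -1.26 in RagKO silica, -1.12 and -1.1 in RagKO saline, 3.32 and 3.21 in WT silica and 4.09 and 4.16 in WT saline. NK cell markers were lower in 7 of 7 cases after silica and 6 of 7 after saline, but their mean stayed at 2.55 and 1.99 in RagKO silica and 2.77 and 2.84 in RagKO saline, against 4.45 and 4.41 in WT silica and 3.81 and 3.81 in WT saline. The part of these features in the results was not tested.

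Silica raised the ligands Il6 and Il4 and the receptor chain Il6st in WT, though the Il4 call was lost when some single WT arrays were left out. In RagKO the silica differences of these members (0.13, -0.34 and -0.10) were not called, and they were lower than in WT by the test of the difference. Silica raised Il4ra and Il18bp in RagKO, with larger effects than in WT by the same test. Genes were called at an adjusted p below 0.05 in limma, with Benjamini-Hochberg adjustment over all 11597 genes. Silica raised 10 members in RagKO (1 ligand, 8 receptor chains and the binding protein) and lowered 2 receptor chains, 12 of 30 where 32.7% of all genes were called, 16.8% higher and 15.9% lower. In WT it raised 5 (4 ligands and 1 receptor chain) and lowered 2 (1 ligand and 1 receptor chain), 7 of 30 where 19.7% of all genes were called, 11.5% higher and 8.21% lower. RagKO exceeded WT in 9 members after saline (4 ligands and 5 receptor chains) and fell below it in 9 (2 and 7), 18 of 30 where 66.2% of all genes were called, 37% higher and 29.2% lower. After silica 11 were higher in RagKO and 4 lower, 15 of 30 where 60.1% of all genes were called, 33.7% higher and 26.4% lower. The silica effect itself differed between the genotypes for 8 members, 5 with a larger value in RagKO and 3 with a smaller one, where 23.3% of all genes were called, 11% larger and 12.3% smaller. Called in either direction, the shares of members lie near those of all genes in these comparisons. By direction some shares departed from those of all genes. For silica in RagKO 10 of 30 rose where 16.8% of all genes did, and 2 fell where 15.9% did. After silica 4 of 30 were lower in RagKO than in WT where 26.4% of all genes were. By kind, 8 of 19 receptor chains rose with silica in RagKO, and 4 of 10 ligands rose in WT where 11.5% of all genes did. Whether these shares are particular to the family was not tested. The median log2 difference of the members was 0.12 for silica in RagKO, 0.12 for silica in WT, -0.07 for RagKO against WT after saline and 0.13 after silica, where the medians of all genes were -0.03, -0.01, 0.1 and 0.07. Il11, a gp130 cytokine, the IL-17 receptor chain Il17rc and the IL-18 receptor accessory chain Il18rap passed in none of the 5 comparisons.

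**Figure D1:**
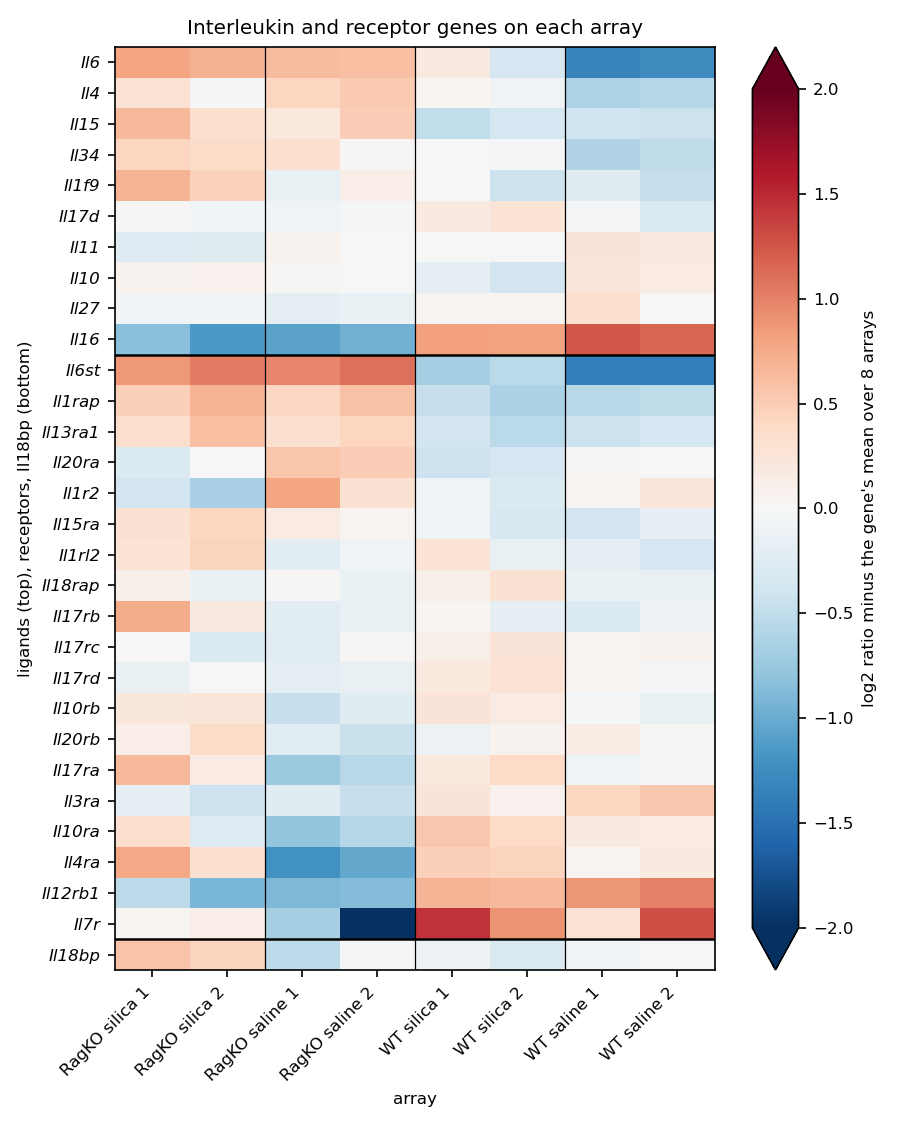
Each row is a member and each column an array; colour gives the log2 ratio minus the mean of that gene over the 8 arrays, with ligands above the first line, receptor chains below it and Il18bp last, each ordered by RagKO saline minus WT saline, and the colour scale ends at 2 in either direction. Il6 and Il6st are high on all 4 RagKO arrays and lowest on the WT saline arrays, while Il4ra is low only on the RagKO saline arrays.

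Among the ligands, Il6, the founding cytokine of the gp130 group, was higher in RagKO than in WT after either exposure and rose with silica in WT. Its log2 ratio was 4.06 and 3.99 in RagKO silica, 3.91 and 3.88 in RagKO saline, 3.46 and 2.94 in WT silica and 1.95 and 2.01 in WT saline. The WT saline arrays were the lowest by a wide gap, and no groups overlapped. Silica raised Il6 2.33-fold in WT (log2 difference 1.22, SE 0.15, adjusted p = 0.000681), whereas the difference in RagKO was 0.13 (SE 0.15, adjusted p = 0.54). The 2 silica effects differed by -1.09 (SE 0.22, adjusted p = 0.00558). RagKO exceeded WT 3.76-fold after saline and 1.77-fold after silica.

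The shared receptor chain Il6st (gp130), through which IL-6 and IL-11 signal, was likewise high in both RagKO groups and lowest in WT saline. It read 1.45 and 1.60 in RagKO silica, 1.57 and 1.68 in RagKO saline, -0.08 and 0.04 in WT silica and -0.78 and -0.80 in WT saline. The RagKO arrays all lay well above the WT arrays, and silica separated the groups only in WT. The genotype difference was 5.33-fold after saline (log2 difference 2.41, SE 0.11, adjusted p = 1.02e-07) and 2.91-fold after silica (1.54, adjusted p = 2.58e-06). Silica raised Il6st by 0.77 in WT (adjusted p = 0.00142) and the difference in RagKO was -0.10 (adjusted p = 0.514), and the 2 effects differed by -0.87 (SE 0.16, adjusted p = 0.00351). Fibroblast and smooth muscle markers had the order of the Il6st means, with a mean over the 9 measured markers of 1.36 and 1.12 in RagKO silica, 1.51 and 1.49 in RagKO saline, 0.76 and 0.52 in WT silica and -0.06 and -0.03 in WT saline. Of these 9, silica raised 6 and lowered 0 in WT, and 7 were higher and 2 lower in RagKO than in WT after saline. Within RagKO, 2 of the 9 rose with silica and 6 fell (median -0.6), unlike Il6st, which was not called there. Of 10 lung epithelium markers silica raised 7 and lowered 1 in WT, with a mean of 2.23 and 2.06 in RagKO silica, 2.43 and 2.48 in RagKO saline, 2.08 and 2.25 in WT silica and 1.28 and 1.37 in WT saline. Within RagKO, 0 of these 10 rose with silica and 4 fell. The part of the fibroblast, smooth muscle and epithelium markers in the Il6 and Il6st results was not tested. In bulk RNA fewer cells of a type and less RNA per cell cannot be told apart.

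Il4, the type 2 cytokine best known from helper T cells, was the third member with a rise in WT and a lower silica effect, not called, in RagKO. Its log2 ratio was 2.72 and 2.40 in RagKO silica, 2.86 and 2.94 in RagKO saline, 2.47 and 2.35 in WT silica and 1.81 and 1.85 in WT saline. After saline the RagKO arrays lay above the WT arrays, a 2.1-fold difference (log2 difference 1.07, SE 0.13, adjusted p = 3.44e-05), and after silica the groups overlapped (0.15, SE 0.13). Silica raised Il4 by 0.58 in WT (SE 0.13, adjusted p = 0.0109), a call lost without the first WT saline array (0.56, adjusted p = 0.0796), the second (0.60, adjusted p = 0.066) or the first WT silica array (0.52, adjusted p = 0.0546). The difference in RagKO was -0.34 (adjusted p = 0.0597). The 2 silica effects differed by -0.92 (SE 0.18, adjusted p = 0.00502).

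Genes of mast cells and basophils, which also make IL-4, gave mixed values beside it. Of 4 measured markers 2 were higher and 1 lower in RagKO than in WT after saline, and their mean was 2.28 and 2.27 in RagKO silica, 2.57 and 2.26 in RagKO saline, 2.36 and 2.42 in WT silica and 2.04 and 2.01 in WT saline. Cpa3, a mast cell protease gene, read 1.30 and 1.65 in RagKO silica, 1.79 and 1.84 in RagKO saline, 1.34 and 1.04 in WT silica and 0.78 and 0.71 in WT saline, the same order of group means as Il4. The other 3 did not share that order. Gata2 read 0.46 and 0.15 in RagKO silica, 0.05 and -0.12 in RagKO saline, 1.42 and 1.88 in WT silica and 1.04 and 0.93 in WT saline. Hdc ranged from 4.87 to 6.77 and Kit from 0.65 to 2.39 over the 8 arrays. The part of these cells in the Il4 values was not tested. Gata3, the transcription factor of IL-4-making lymphocytes, was lower in RagKO by -0.87 after saline and -1.28 after silica (adjusted p = 0.000241 and 2.57e-05).

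The 3 members with a lower silica effect in RagKO by the test of the difference are shown with the 250 bases before an annotated gene start, from RefSeq on GRCm38.p6. They were picked by that test, and their values differed otherwise. The windows were Il6 at chr5:30012864-30013113 on the plus strand, Il4 at chr11:53618666-53618915 on the minus strand and Il6st at chr13:112463820-112464069 on the plus strand. Capitals mark matches to the motifs searched on both strands, TTCNNNGAA (STAT), TGANTCA (AP-1) and the NF-kB motif with 1 free base, and the matches do not overlap.
Il6: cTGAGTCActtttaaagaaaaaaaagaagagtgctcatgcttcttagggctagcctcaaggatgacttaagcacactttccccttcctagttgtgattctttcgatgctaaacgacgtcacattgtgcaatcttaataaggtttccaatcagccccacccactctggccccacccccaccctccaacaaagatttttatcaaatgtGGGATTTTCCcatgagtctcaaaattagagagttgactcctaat
Il4: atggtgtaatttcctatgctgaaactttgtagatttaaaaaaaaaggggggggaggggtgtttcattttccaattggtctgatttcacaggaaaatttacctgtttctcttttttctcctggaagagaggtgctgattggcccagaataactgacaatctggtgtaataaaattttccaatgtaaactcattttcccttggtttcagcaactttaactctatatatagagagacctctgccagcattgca
Il6st: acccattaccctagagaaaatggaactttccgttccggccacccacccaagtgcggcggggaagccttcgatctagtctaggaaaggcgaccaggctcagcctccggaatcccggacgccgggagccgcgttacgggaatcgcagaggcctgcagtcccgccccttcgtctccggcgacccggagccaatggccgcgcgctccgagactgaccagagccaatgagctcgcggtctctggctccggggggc
The Il6 window held an AP-1 match that begins 249 bases before the gene start and an NF-kB match that begins 44 bases before it. The Il4 and Il6st windows shown held no match to these letters. Il4 had 2 annotated windows, and only that of the outermost start is shown. Among 32851 annotated windows of the same length, 6.75% held the AP-1 letters, 0.356% the NF-kB motif and 7.02% the STAT letters.

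Other ligands differed by genotype with little response to silica. Il16, a chemoattractant for CD4 cells that lymphocytes make, read 0.99 and 0.68 in RagKO silica, 0.76 and 0.88 in RagKO saline, 2.66 and 2.63 in WT silica and 3.07 and 2.99 in WT saline. All RagKO arrays lay below all WT arrays. The difference was -2.21 after saline (SE 0.12, adjusted p = 2.78e-07), 4.62-fold, and -1.81 after silica (adjusted p = 1.93e-06), 3.51-fold. T cell markers averaged -1.07 and -1.13 in RagKO silica, -1.01 and -0.91 in RagKO saline, 1.15 and 1.23 in WT silica and 1.21 and 1.28 in WT saline over 7 genes. The part of these markers, and of the B cell markers given above, in the Il16 result was not tested. Its second probe, missing on 1 array, read 0.39 and 0.13 in RagKO silica, 0.28 in RagKO saline, 1.23 and 1.29 in WT silica and 0.86 and 0.80 in WT saline, again lower in RagKO but higher in WT silica than in WT saline.

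Il15, the survival cytokine of NK cells and memory T cells, was higher in RagKO, at 1.55 and 1.21 in RagKO silica, 1.11 and 1.39 in RagKO saline, 0.41 and 0.54 in WT silica and 0.49 and 0.46 in WT saline. The difference was 0.77 after saline (adjusted p = 0.000749) and 0.90 after silica (adjusted p = 0.000352), and both of its probes passed in both comparisons. Its private receptor chain Il15ra, which presents IL-15 to neighbouring cells, was higher by 0.38 (adjusted p = 0.023) and 0.58 (adjusted p = 0.00302). The first of these calls was lost without the first WT saline array (0.27, adjusted p = 0.188) or the first RagKO saline array (0.32, adjusted p = 0.106).

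Il34, a ligand of the CSF1 receptor on macrophages, read -0.10 and -0.16 in RagKO silica, -0.21 and -0.50 in RagKO saline, -0.53 and -0.56 in WT silica and -1.13 and -1.04 in WT saline. It was higher in RagKO by 0.73 after saline (adjusted p = 0.000388) and by 0.41 after silica (adjusted p = 0.0135), and silica raised it by 0.54 in WT (adjusted p = 0.0119). The difference after silica was lost without the second WT silica array (0.40, adjusted p = 0.0543) or the first RagKO silica array (0.39, adjusted p = 0.0547). The rise in WT was lost without either WT saline array (0.50 and 0.59, adjusted p = 0.0996 and 0.0595) or the second WT silica array (0.56, adjusted p = 0.0522).

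Il10, an inhibitor of macrophage activation, and Il1f9, which encodes IL-36 gamma, changed less. Il10 lay at 0.04 and 0.06 in RagKO silica, -0.01 and -0.04 in RagKO saline, -0.22 and -0.42 in WT silica and 0.21 and 0.14 in WT saline. It fell by 0.49 with silica in WT (adjusted p = 0.012), and its silica effects differed by 0.57 (SE 0.16, adjusted p = 0.0255). The fall was lost without either WT saline array (-0.46 and -0.53, adjusted p = 0.103 and 0.0689) or the second WT silica array (-0.39, adjusted p = 0.0879). The difference between the effects was lost without either WT saline array (0.53 and 0.60), the second WT silica array (0.47), the second RagKO saline array (0.55) or the second RagKO silica array (0.56), with adjusted p from 0.0524 to 0.109. After silica Il10 was higher in RagKO by 0.37 (adjusted p = 0.0148), lost without the second WT silica array (0.27, adjusted p = 0.11) or the second RagKO silica array (0.36, adjusted p = 0.0538).

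Il1f9 was the only ligand called for silica in RagKO, at 2.20 and 1.98 in RagKO silica against 1.37 and 1.64 in RagKO saline (log2 difference 0.58, adjusted p = 0.0238). That call was lost without the first RagKO saline array (0.44, adjusted p = 0.151) or the first RagKO silica array (0.47, adjusted p = 0.136), under quantile normalization and where missing values were allowed (lowest difference 0.24). Its other probe, missing on 1 array, read 0.97 and 1.04 in RagKO silica and 0.82 in RagKO saline. Against WT silica, at 1.52 and 1.08, Il1f9 was higher in RagKO silica by 0.79 (adjusted p = 0.00232). Il17d, an IL-17 family cytokine, rose by 0.39 with silica in WT (adjusted p = 0.0414), a call lost without any single WT array (0.27 to 0.51), under quantile normalization, with trend and robust moderation, with the replicate block and with only the 4 arrays compared (adjusted p up to 0.33). Il27, the p28 subunit of IL-27, was lower in RagKO by -0.31 after saline (adjusted p = 0.048), a call lost when any array but the second WT saline array was left out, under quantile normalization, with the replicate block, with only the 4 arrays compared and where other probes or genes entered the fit. Without the first WT saline array the difference was -0.14 (adjusted p = 0.427).

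**Figure D2:**
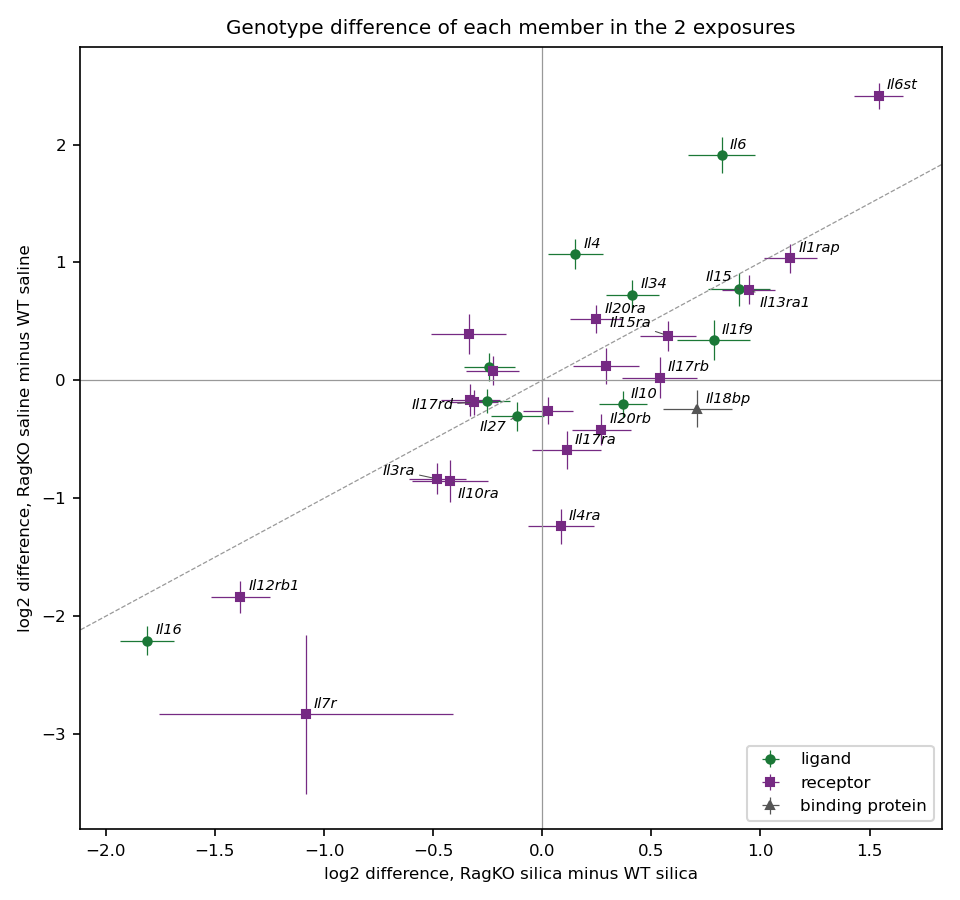
Log2 difference of each member, RagKO silica minus WT silica on the horizontal axis and RagKO saline minus WT saline on the vertical axis, with bars of 1 SE and the line of equal values dashed; members called in either comparison are named, with thin lines from displaced names to their points. Il6st, Il6 and Il1rap lie high on both axes, Il16 and Il12rb1 low on both, and Il4ra lies near 0 after silica and at -1.24 after saline.

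Across the 2 exposures, which share no array, 7 members were higher in RagKO in both (Il6, Il15, Il34, Il6st, Il1rap, Il13ra1 and Il15ra) and 3 were lower in both (Il16, Il12rb1 and Il3ra). A further 8 were called after saline alone and 5 after silica alone, and 0 were called in opposite directions. Over all genes 25.8% were higher in both, 20.2% lower in both, 17.9% called after saline alone, 11.8% after silica alone and 2.26% in opposite directions. Whether the members depart from these shares was not tested.

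Among receptor chains of the type 2 and common gamma chain cytokines, Il4ra and Il7r were called for silica in RagKO, and Il13ra1 (0.10, adjusted p = 0.541) and Il15ra (0.26, adjusted p = 0.136) were not. Il4ra, the chain that the IL-4 and IL-13 receptors share, read 2.22 and 1.76 in RagKO silica, 0.23 and 0.42 in RagKO saline, 1.92 and 1.89 in WT silica and 1.5 and 1.63 in WT saline. The RagKO saline arrays stood alone at the low end. Silica raised Il4ra 3.16-fold in RagKO (log2 difference 1.66, SE 0.15, adjusted p = 7.75e-05), and the difference in WT was 0.34 (SE 0.15, adjusted p = 0.141). The 2 effects differed by 1.32 (SE 0.21, adjusted p = 0.00192). RagKO was below WT after saline by -1.24 (adjusted p = 4.32e-05), while after silica the groups overlapped (0.08, SE 0.15). Its partner for IL-13 signalling, Il13ra1, an X-linked gene, was higher in RagKO by 0.77 after saline and 0.95 after silica (adjusted p = 0.000289 and 9.43e-05), at 1.65 and 1.90 in RagKO silica, 1.62 and 1.73 in RagKO saline, 0.91 and 0.75 in WT silica and 0.87 and 0.94 in WT saline.

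Il7r, the IL-7 receptor chain of T cells and innate lymphoid cells, spread widely within RagKO saline. It read 3.49 and 3.57 in RagKO silica, 2.78 and 0.01 in RagKO saline, 4.88 and 4.35 in WT silica and 3.73 and 4.73 in WT saline. The groups did not overlap between RagKO silica and RagKO saline, but a single RagKO saline array set the size of the difference. Silica raised it by 2.13 in RagKO (SE 0.67, adjusted p = 0.0346), and this became 0.75 (adjusted p = 0.165) without the second RagKO saline array and 3.52 without the first. The call was also lost without the first or the second RagKO silica array (2.17 and 2.10, adjusted p = 0.116 and 0.109) and with trend and robust moderation (adjusted p = 0.184). RagKO was lower than WT after saline by -2.83 (SE 0.67, adjusted p = 0.00374), or -1.45 without the second RagKO saline array and -4.22 without the first, both called, but with trend and robust moderation the call was lost (adjusted p = 0.0653). After silica the difference was -1.08 (SE 0.67) and did not pass. The mean over 4 markers of group 2 innate lymphoid cells, 1.36 and 1.43 in RagKO silica, 0.82 and 0.98 in RagKO saline, 2.36 and 2.39 in WT silica and 1.86 and 1.61 in WT saline, had the order of the Il7r means. It rested on Icos, a T cell gene too, at 2.48 and 2.71 in RagKO silica, 1.76 and 2.03 in RagKO saline, 6.69 and 6.51 in WT silica and 6.11 and 5.14 in WT saline. Kit ran the other way between the genotypes, and of the 4 markers 1 was higher and 2 lower in RagKO after saline and 2 were higher and 2 lower after silica. The part of these cells in the Il7r values was not tested. Il3ra, the IL-3 receptor chain of basophils and dendritic cells, was lower in RagKO by -0.84 after saline (adjusted p = 0.000252) and by -0.48 after silica (adjusted p = 0.00911), the second lost without the first WT silica array (-0.40, adjusted p = 0.0606) or the second RagKO silica array (-0.36, adjusted p = 0.0708).

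Among receptors of the IL-12 and IL-10 families, Il12rb1, the chain that the IL-12 and IL-23 receptors of T and NK cells share, was lower in RagKO. It read -0.81 and -1.20 in RagKO silica, -1.19 and -1.16 in RagKO saline, 0.39 and 0.36 in WT silica and 0.60 and 0.72 in WT saline, with all RagKO arrays below all WT arrays. The difference was -1.83 after saline (SE 0.13, adjusted p = 1.4e-06) and -1.38 after silica (adjusted p = 1.62e-05), beside the lower T and NK cell markers given above, whose part in it was not tested. Il10ra, the ligand-binding chain of the IL-10 receptor, was lower in RagKO by -0.85 after saline (adjusted p = 0.00149). Silica raised it by 0.72 in RagKO (adjusted p = 0.0113), at 4.22 and 3.63 in RagKO silica against 3.09 and 3.31 in RagKO saline, a call lost without the first RagKO saline array (0.61, adjusted p = 0.0849) or the first RagKO silica array (0.42, adjusted p = 0.0661). Il10rb, its shared partner chain, rose by 0.58 with silica in RagKO (adjusted p = 0.00389), at 1.53 and 1.54 in RagKO silica against 0.84 and 1.06 in RagKO saline.

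The IL-20 receptor chains went opposite ways with silica in RagKO. Il20ra read -1.76 and -1.49 in RagKO silica, -0.93 and -0.99 in RagKO saline, -1.92 and -1.82 in WT silica and -1.47 and -1.49 in WT saline. It fell by 0.67 with silica in RagKO (adjusted p = 0.00246) and by 0.39 in WT (adjusted p = 0.0433), and it was the 1 member called in the same direction in both genotypes. The call in WT was lost without any single WT array (-0.34 to -0.44) or either RagKO saline array (-0.39, adjusted p = 0.051), and under quantile normalization. After saline Il20ra was higher in RagKO by 0.52 (adjusted p = 0.00295). Il20rb read 0.93 and 1.17 in RagKO silica, 0.59 and 0.35 in RagKO saline, 0.68 and 0.87 in WT silica and 0.95 and 0.83 in WT saline, and rose by 0.58 with silica in RagKO (adjusted p = 0.00894). That call was lost without the second RagKO saline or the second RagKO silica array (0.46 each, adjusted p = 0.0559 and 0.0544). After saline it was lower in RagKO by -0.42 (adjusted p = 0.0183), lost without the first WT saline array (-0.36, adjusted p = 0.116) or the second RagKO saline array (-0.30, adjusted p = 0.12), and under quantile normalization. Its silica effects differed by 0.69 (SE 0.19, adjusted p = 0.0256), lost without either WT saline array (0.63 and 0.75), the first WT silica array (0.59), the second RagKO saline array (0.57) or the second RagKO silica array (0.57), with adjusted p from 0.0556 to 0.101.

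In the IL-17 receptor family, Il17ra, the chain common to these receptors, rose 2.08-fold with silica in RagKO (log2 difference 1.06, SE 0.16, adjusted p = 0.00104). It read 1.27 and 0.78 in RagKO silica, -0.12 and 0.06 in RagKO saline, 0.81 and 1.02 in WT silica and 0.53 and 0.60 in WT saline. As with Il4ra, the RagKO saline arrays were the lowest and the RagKO silica and WT silica arrays overlapped. RagKO was lower after saline by -0.59 (adjusted p = 0.00761), a call lost without the first RagKO saline array (-0.50, adjusted p = 0.0594). The difference between the silica effects was 0.70 (SE 0.23, adjusted p = 0.0475) and was lost when any array but the second RagKO silica array was left out (0.46 to 0.80, adjusted p from 0.0569 to 0.142), with the replicate block (adjusted p = 0.0575) and where missing values were allowed. Il17rb, the IL-25 receptor chain, rose by 0.64 with silica in RagKO (adjusted p = 0.0184), with RagKO silica arrays at 0.65 and 0.09 against -0.32 and -0.22 in RagKO saline. That call was lost without either RagKO saline array (0.59 and 0.69, adjusted p = 0.0995 and 0.0544) or the first RagKO silica array (0.36, adjusted p = 0.123). After silica it was higher in RagKO than in WT by 0.54 (adjusted p = 0.0211), lost without the second WT silica array (0.42, adjusted p = 0.123) or the first RagKO silica array (0.26, adjusted p = 0.174).

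The probes of Il17rd, an inhibitor of FGF signalling in the same family, disagreed. Their mean was lower in RagKO after silica by -0.31 (adjusted p = 0.03), a call lost without the first RagKO silica array (-0.23), the second WT silica array (-0.26) or either WT saline array (-0.31), with only the 4 arrays compared and with the probe of the highest mean ratio alone (adjusted p = 0.439). With silica in WT 1 probe rose by 0.72 (adjusted p = 0.00431), while the other differed by -0.26 (adjusted p = 0.161).

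Among receptors of the IL-1 family, Il1r2, the decoy receptor that binds IL-1 without signalling, fell with silica in RagKO, while the accessory chain Il1rap differed by genotype alone. Il1r2 read 5.08 and 4.81 in RagKO silica, 6.25 and 5.76 in RagKO saline, 5.39 and 5.18 in WT silica and 5.52 and 5.71 in WT saline. The RagKO silica arrays were the lowest of all. It fell by 1.06 in RagKO (SE 0.17, adjusted p = 0.00146), a 2.09-fold difference, against -0.33 in WT (adjusted p = 0.199), and the difference between these effects, -0.73 (SE 0.24, adjusted p = 0.0523), did not pass. Neutrophils carry this decoy receptor. Of 6 neutrophil markers silica raised 2 and lowered 2 in RagKO, with a mean of 3.80 and 3.88 in RagKO silica against 4.08 and 4.18 in RagKO saline, and their part in the Il1r2 fall was not tested. Il1rap read 1.08 and 1.29 in RagKO silica, 1.01 and 1.18 in RagKO saline, 0.13 and -0.04 in WT silica and 0.04 and 0.08 in WT saline, 2.05-fold higher in RagKO after saline (adjusted p = 3.56e-05) and 2.2-fold after silica (adjusted p = 2.99e-05). Both of its probes passed in both comparisons. Il1rl2, the IL-36 receptor, rose by 0.50 with silica in RagKO (adjusted p = 0.0291), at 1.56 and 1.73 in RagKO silica against 1.06 and 1.22 in RagKO saline, a call lost without any single RagKO array (0.42 to 0.59) and under quantile normalization (lowest difference 0.36 over the alternatives).

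The binding protein Il18bp, which holds IL-18 away from its receptor, read 1.55 and 1.43 in RagKO silica, 0.45 and 0.95 in RagKO saline, 0.88 and 0.68 in WT silica and 0.92 and 0.97 in WT saline. The RagKO silica arrays were above all others. Silica raised it by 0.79 in RagKO (SE 0.16, adjusted p = 0.00426) and the difference in WT was -0.17 (adjusted p = 0.494). The 2 effects differed by 0.95 (SE 0.22, adjusted p = 0.012), and after silica RagKO exceeded WT by 0.71 (adjusted p = 0.00289).

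**Figure D3:**
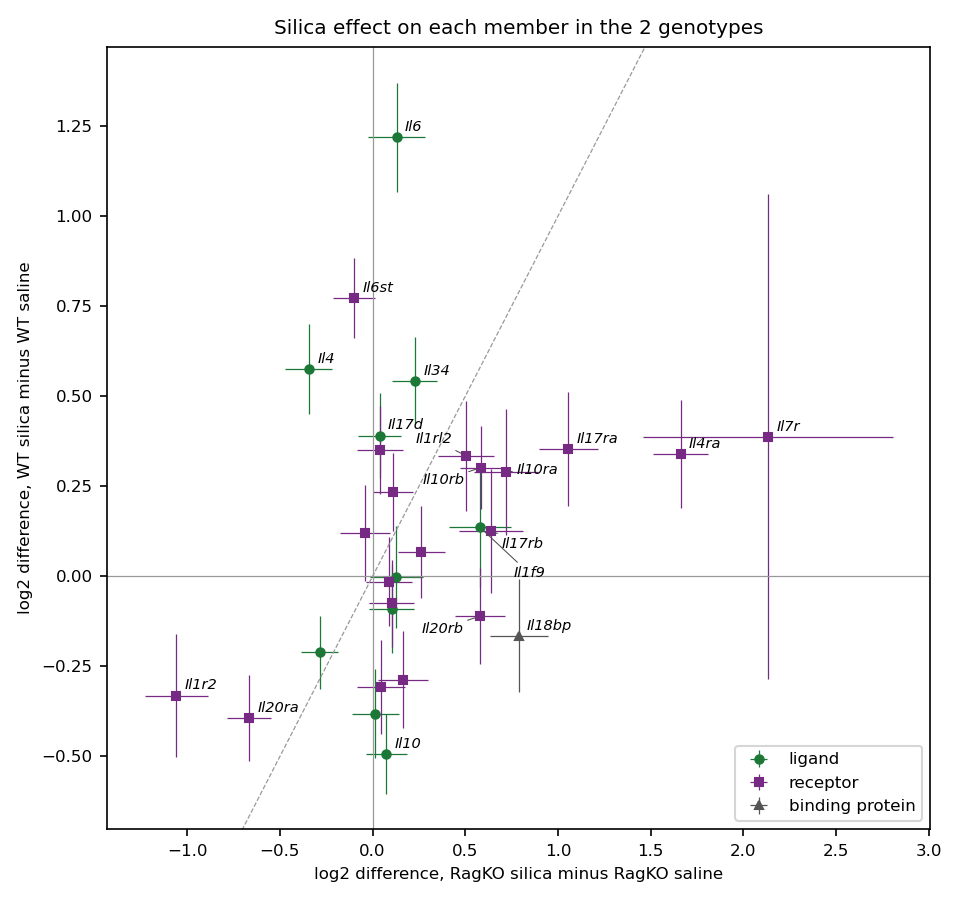
Log2 difference of each member, RagKO silica minus RagKO saline on the horizontal axis and WT silica minus WT saline on the vertical axis, with bars of 1 SE and the line of equal values dashed; members called in either comparison are named, with thin lines from displaced names to their points. Receptor chains such as Il4ra and Il17ra spread along the RagKO axis, while Il6, Il6st and Il4 spread along the WT axis, and Il7r has the widest bars.

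For silica, 11 members were called in RagKO alone, 6 in WT alone, 1 in both (lower) and 12 in neither. Over all genes 24% were called in RagKO alone, 11% in WT alone, 3.01% higher and 1.64% lower in both, 4.08% in opposite directions and 56.3% in neither, so a small overlap is not particular to the members. A call in 1 genotype alone does not show that the effects differ: the test of the difference passed for 8 members, and the difference was 1.75 (SE 0.95, adjusted p = 0.217) for Il7r. Of the 8, the calls of Il4, Il6, Il6st, Il4ra and Il18bp were kept when each array was left out in turn. Because the RagKO silica arrays went opposite ways for sex-linked transcripts, the counts were repeated without each of them. For silica in RagKO 7 of the 12 calls were kept without the first and 9 without the second. For RagKO against WT after silica, 12 and 13 of the 15 calls were kept.

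**Figure D4:**
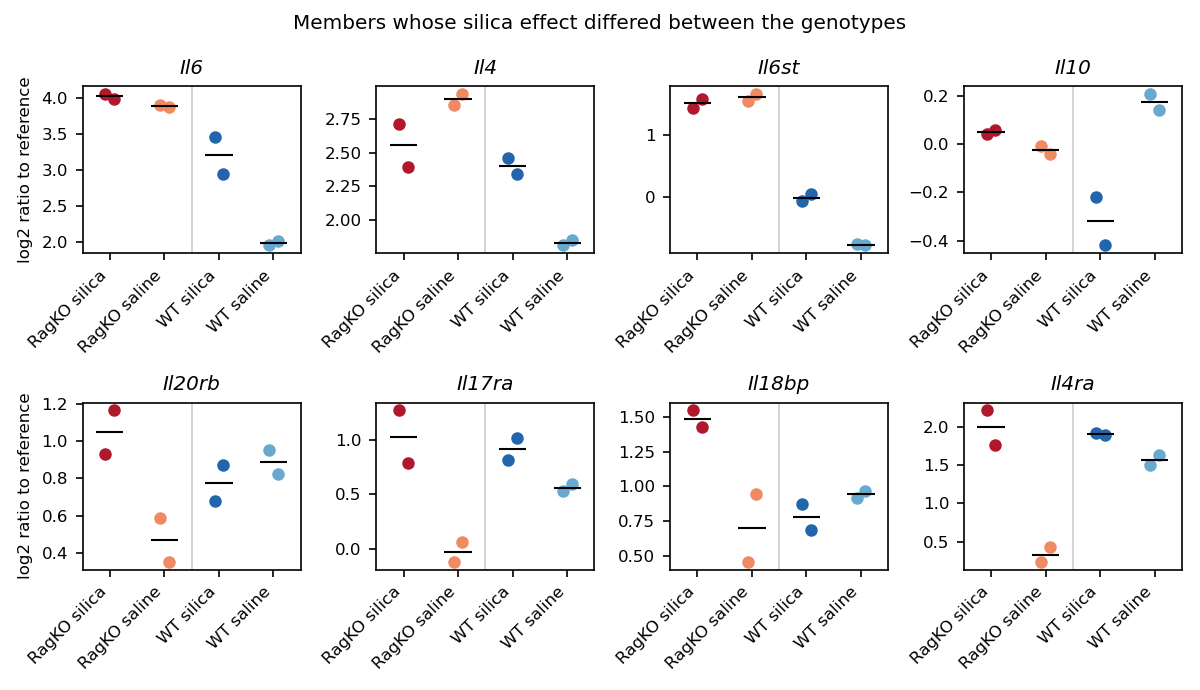
Log2 ratio to the reference on each array for the 8 members whose silica effect differed between the genotypes, with a point for each array and a line at the group mean; vertical scales differ between panels. In Il6, Il4 and Il6st the WT saline arrays are the lowest, and in Il4ra, Il17ra and Il20rb the RagKO saline arrays are the lowest.

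Macrophage markers moved beside the rises of Il4ra, Il17ra, Il10ra, Il10rb and Il18bp in RagKO. Of 7 measured markers silica raised 5 in RagKO and lowered 0, and in WT it raised 1 and lowered 1. Their mean was 3.12 and 3.30 in RagKO silica, 2.23 and 2.37 in RagKO saline, 2.38 and 2.14 in WT silica and 2.17 and 2.13 in WT saline. After saline 3 of the 7 were higher and 1 lower in RagKO than in WT, and Il4ra, Il17ra and Il10ra were lower in RagKO. The 1 lower marker, Marco, was lowest on the RagKO saline arrays, as these 3 receptor chains were. Marco read 6.38 and 6.39 in RagKO silica, 4.1 and 4.11 in RagKO saline, 7.07 and 7.08 in WT silica and 6.57 and 6.56 in WT saline. Of 6 general leukocyte markers 4 were lower and 1 higher in RagKO than in WT after saline. With silica 3 of these 6 rose and 1 fell in RagKO. The part of either list of markers in the receptor results was not tested.

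Many genes of the JAK and STAT pathway were lower in RagKO than in WT after saline, and 10 genes of the pathway, not all of them among those lowered, rose with silica in RagKO. Of 21 measured JAK, STAT and SOCS genes and their regulators, silica raised 10 and lowered 0 in RagKO, with a median of 0.32, and raised 2 and lowered 0 in WT, with a median of 0.14. After saline 13 were lower and 6 higher in RagKO than in WT (median -0.86), and after silica 9 were lower and 7 higher (median -0.25). Over all genes 32.7% were called for silica in RagKO, 19.7% for silica in WT, 66.2% for genotype after saline and 60.1% after silica. Cish, a feedback inhibitor induced through STAT5, read 2.21 and 2.00 in RagKO silica, -0.44 and -0.21 in RagKO saline, 1.82 and 1.81 in WT silica and 1.5 and 1.14 in WT saline. It rose by 2.43 in RagKO (adjusted p = 1.26e-05) and by 0.49 in WT (adjusted p = 0.0389), effects that differed by 1.93 (adjusted p = 0.000243). Socs3, the inhibitor of gp130 signalling, rose in both, by 1.57 in RagKO and 1.09 in WT (adjusted p = 0.000174 and 0.00195), and the difference of 0.49 did not pass (adjusted p = 0.17). Stat3, the main STAT of IL-6 and IL-10, rose by 1.18 in RagKO (adjusted p = 0.000166) against -0.09 in WT, and Jak2 by 1.11 (adjusted p = 0.000186) against 0.32.

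Receptor chains and cytokines of the same families whose symbols do not begin with Il also rose mostly in RagKO. Of 12 measured, silica raised 8 and lowered 1 in RagKO (median 0.64) and raised 1 in WT (median 0.18), where 32.7% and 19.7% of all genes were called. Csf2rb, the common beta chain of the IL-3, IL-5 and GM-CSF receptors, rose by 1.07 in RagKO (adjusted p = 0.00053), and Csf2rb2, the IL-3-specific beta chain of the mouse, by 1.77 (adjusted p = 0.000441). These 2 genes are near-identical copies, so their separate values are uncertain. Oncostatin M (Osm), another gp130 cytokine, rose by 1.46 in RagKO (adjusted p = 0.000305), at 4.39 and 3.96 in RagKO silica against 2.80 and 2.63 in RagKO saline. Crlf2, the TSLP receptor chain that pairs with Il7r, rose by 0.87 (adjusted p = 0.00095), and Csf2 was the gene called in WT, with a rise of 0.93 (adjusted p = 0.00119). Adaptors of the IL-1 and IL-17 receptors changed less: of 13, silica raised 4 and lowered 2 in RagKO (median 0.07) and raised 2 in WT (median 0.07). After saline 4 were higher and 3 lower in RagKO than in WT (median 0.13), and after silica 4 were higher and 4 lower (median -0.05). Of all genes 66.2% were called after saline and 60.1% after silica. Irak2, a kinase of the MyD88 complex, rose by 1.12 in RagKO (adjusted p = 0.000931) and by 0.56 in WT (adjusted p = 0.0403). Of 6 lineage regulators of helper and innate lymphoid cells, silica raised Gata3 in both genotypes, by 0.55 in RagKO and 0.97 in WT (adjusted p = 0.0113 and 0.00116), and Ahr in WT by 0.45 (adjusted p = 0.025).

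**Figure D5:**
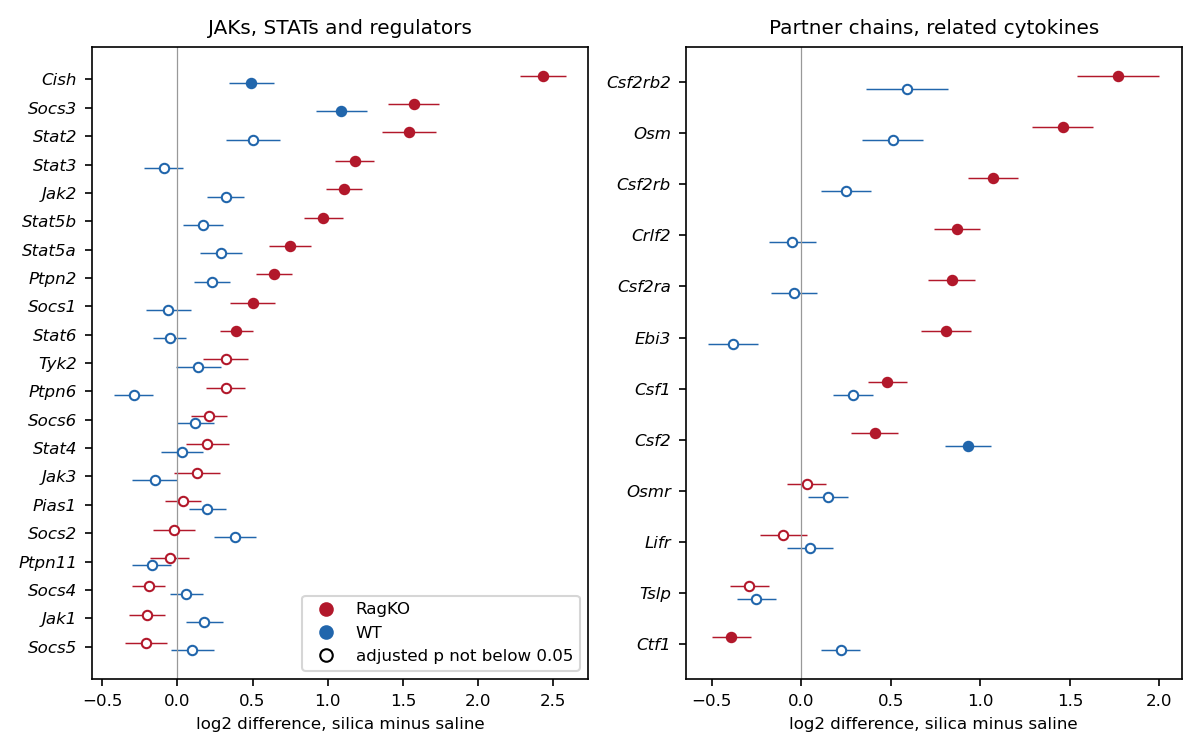
Log2 difference, silica minus saline, in RagKO (red) and WT (blue) for JAK, STAT and SOCS genes on the left and partner chains and related cytokines on the right, with bars of 1 SE and open points where the adjusted p was not below 0.05. Cish, Socs3, Stat2 and Csf2rb2 lie farthest to the right in RagKO, and filled blue points are few.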

How the data were processed

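Interstitial leukocyte RNA of 8 samples in 4 groups was hybridised with a universal mouse reference, using a dual-colour Agilent labelling kit, per the labels' protocols. The deposited table holds log10 ratios (Cy5 over Cy3) for 16251 probes; the base was inferred, since the largest ratio would be 737-fold read as log10 and 7.3-fold as log2. How the authors corrected background, normalized and filtered is not given in the sources used here, so compression of weak signals cannot be assessed, and depth does not apply to arrays, whose number limits the precision.

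Multiplying by 3.3219 gave log2 ratios. Array medians spanned 0.0677, and no further normalization was applied. Probes with 1 gene symbol and a value on all 8 arrays were averaged per gene, giving 11597 genes; 3 members had several such probes, and all 30 members' Entrez identifiers matched RefSeq of GRCm38.p6 with the same symbol. limma 3.58.1 (R 4.3.3) was fitted over all 8 arrays as 4 group means, with 4 residual degrees of freedom, Benjamini-Hochberg adjustment and a threshold of 0.05. The p-values measure the spread between these arrays. The code was tested on simulated data. Any member could be named; values on every array were due for members called with a log2 difference of at least 1 between 2 groups or called in the difference between silica effects, and those of other members were added after seeing the values. The members and gene lists were chosen with earlier results of these data known. Alternatives were median centring, quantile normalization, the probe with the highest mean ratio, missing values allowed, eBayes with trend, a replicate block, the 4 arrays compared alone and each array left out.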

Additional observations from a re-analysis of the deposited data

Results flagged for a closer look

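The silica effect differed between the genotypes, by the test of the difference itself, for 8 members (RagKO effect minus WT effect, log2 scale). Il6 differed by -1.09, Il4 by -0.92 and Il6st by -0.87, members with a rise in WT and no call in RagKO. Il4ra differed by 1.32, Il18bp by 0.95, Il17ra by 0.70 and Il20rb by 0.69, members with a rise in RagKO. Il10, with a fall in WT, differed by 0.57. The calls of Il17ra, Il20rb and Il10 were lost when some single arrays were left out, unlike those of the other members here.

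Il4i1, an L-amino acid oxidase gene induced by IL-4, was outside the tests because it had no value on the first RagKO saline array. It read 2.28 and 2.03 in RagKO silica and 0.21 on the other RagKO saline array, 1.95 higher after silica, with 2.72 and 2.23 in WT silica and 3.15 and 3.16 in WT saline. With a single saline value in RagKO this difference has no test.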

How the results depend on the processing

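No member called in any of the 5 comparisons changed sign under any alternative run. The number of members of each kind called stayed within 1.5 times its main value under median centring, trend and robust moderation and the replicate block. Exceptions elsewhere were the receptor chains called for silica in WT, 2 in the main analysis, with 1 under quantile normalization and 4 with only the 4 arrays compared, and the single ligand called for silica in RagKO, with 0 when genes needed at least 1 value in each group. With each array left out in turn, ligands called ranged from 0 to 1 for silica in RagKO and from 1 to 6 for silica in WT, and from 2 to 3 for the difference between the effects. Receptor chains called ranged from 6 to 10, from 1 to 2 and from 2 to 6 in the same order. For RagKO against WT after saline they ranged from 5 to 6 ligands and from 10 to 13 receptor chains, and after silica from 4 to 7 and from 6 to 10. All genes called for silica in WT, 2283, dropped to 940 and 861 without either WT saline array and 1130 without the second WT silica array; those in RagKO, 3795, dropped to 2380 and 2393 without the first RagKO saline or first RagKO silica array. Without either WT saline array the genes called for the difference between the effects, 2697, dropped to 1649 and 1647. The Il7r calls were lost with trend and robust moderation, at an adjusted p of 0.184 for silica in RagKO and 0.0653 after saline. Deviations of same-numbered arrays had correlations between -0.07 and 0.11 over 6 pairs of groups. These values show no strong shared deviation by number but cannot exclude a pairing of the samples. With the replicate block 1 ligand and 10 receptor chains were called for silica in RagKO, 4 and 2 in WT, 5 and 13 for genotype after saline, 6 and 8 after silica, and 3 and 4 for the difference between the effects, where the Il17ra call was lost. The Il17d and Il27 calls were lost with the block too. With 2 arrays a group and no spot-level signal, differences of weak probes cannot be separated from background, and the cause of each lost call was not tested.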

Other observations

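Il7, the survival cytokine for which Il7r is the receptor, had a value on 5 arrays only: 0.14 on the first RagKO silica array, 0.43 and 0.43 in RagKO saline, -0.06 on the second WT silica array and 0.07 on the second WT saline array. Il17re, the IL-17C receptor chain, read 0.60 and 0.59 in RagKO silica, 0.06 on the first RagKO saline array, 0.80 and 0.64 in WT silica and 0.67 and 0.55 in WT saline, and had no value on the second RagKO saline array. Neither gene was tested.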
